A study of Mus musculus with 6 samples.

Results

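The genes of retinoic acid synthesis, binding and breakdown were followed in retinas of newborn mice that lacked cyclin D1 and of wildtype newborns. The members are Aldh1a1, Aldh1a2, Aldh1a3, Rdh10, Dhrs3, Crabp1, Crabp2, Cyp26a1 and Cyp26c1, and every probe set annotated to 1 of these symbols alone was taken. That gave 11 probe sets for 8 of the 9 genes, out of 34945 probe sets with a single symbol for 18193 genes, and no probe set of Cyp26c1 was analysed here. The tested retinas carried the cyclin D1 -/- genotype and the others were wildtype, all at birth, with 3 numbered pools of retinas of each and 1 Affymetrix array per pool. The labels name no strain, sex, treatment or number of animals per pool, and p-values therefore reflect pool-to-pool spread alone, which may be technical. The submitters asked how genes bound by cyclin D1 change when the protein is missing, and the binding data were not used here.

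Retinoic acid is made from vitamin A and acts on genes inside the nucleus. RDH10 oxidises retinol to retinal and DHRS3 turns retinal back into retinol, while the ALDH1A enzymes oxidise retinal to retinoic acid in a step that is not reversed. CRABP1 and CRABP2 bind retinoic acid in the cell, CYP26 enzymes break it down, and retinoic acid receptors paired with retinoid X receptors bind repeated sites beside their target genes. In the embryonic mouse eye Aldh1a1 marks the dorsal and Aldh1a3 the ventral retina, Cyp26a1 and Cyp26c1 mark a stripe between them, and Aldh1a2 is known from the mesenchyme around the eye.

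Of 12 defining genes of the neural retina 9 had a named probe set, the dimmest of them, Six3, at percentile 88.7 of gene levels, and their summed signal was 8285 to 8604 units in knockout and 7539 to 8294 in wildtype pools. Ccnd1 was lower in every knockout pool, with a difference of -3.59 on the log2 scale (SE 0.08, limma). Pools 1 and 2 were the most alike within each genotype, with an SD of the log2 difference of 0.21 between the knockout pair and 0.22 between the wildtype pair, against 0.28 to 0.52 for the other pairs of arrays. Arrays were split into 3 and 3 by rank of their mean bacterial hybridisation control signal. The brighter set was knockout pools 1 and 2 and wildtype pool 3, at 961, 1060 and 1201 units. Wildtype pools 1 and 2 and knockout pool 3 read 850, 854 and 771 units, and a split by rank does not show a batch. Differences within each of these sets of arrays are given below, the brighter set first, and each rests on a single array of 1 genotype.

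Promoter sequences of the members that moved are shown for the sites they hold, from RefSeq on GRCm38.p6, written 5′ to 3′ on the gene's strand from 250 bases before to 50 after a transcript start. A window was at hand for 6 of the 9 members, and Aldh1a3, Rdh10 and Crabp2 had none. The motif searched on both strands was a direct repeat with 5 bases between its copies, each copy being the letters AGGTCA, alternatively AGTTCA, alternatively GGGTCA and alternatively GGTTCA, the form known for retinoic acid receptor sites. It was found in 32 of 32851 windows of this length (0.0974%). Cyp26a1 held it, with its first base 32 bases before the start, and the other member windows did not. The window of Rarb, a receptor gene known as a retinoic acid target, also held it, 53 bases before the start. The capitals below mark the 2 copies in each. The same repeat with 2 bases between its copies lay in 0.268% of windows and in no member window.
Cyp26a1, chr19:37697558-37697857, plus strand: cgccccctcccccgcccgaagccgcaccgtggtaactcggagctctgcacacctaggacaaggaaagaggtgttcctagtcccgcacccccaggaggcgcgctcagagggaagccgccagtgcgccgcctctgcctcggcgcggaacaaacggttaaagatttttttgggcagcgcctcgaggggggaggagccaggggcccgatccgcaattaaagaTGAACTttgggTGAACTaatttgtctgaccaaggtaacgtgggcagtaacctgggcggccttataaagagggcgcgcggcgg
Rarb, chr14:16575427-16575726, minus strand: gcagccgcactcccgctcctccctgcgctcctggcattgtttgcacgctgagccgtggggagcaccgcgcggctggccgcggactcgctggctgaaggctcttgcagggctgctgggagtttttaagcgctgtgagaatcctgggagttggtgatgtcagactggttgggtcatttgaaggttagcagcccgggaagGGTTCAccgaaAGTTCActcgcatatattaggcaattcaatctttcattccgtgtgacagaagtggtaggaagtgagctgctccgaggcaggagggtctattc

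The windows of the members with the largest rise and the largest fall differ in base composition. Aldh1a1 has 2 windows, and the upstream one, with 43.3% G or C, held no CCAAT box. In the downstream window, shown here, 47% of bases are G or C, and capitals mark 2 copies of CCAAT, a box found on either strand in 37.4% of windows. In the window of Crabp1, 65% of bases are G or C, and capitals mark 5 copies of GGGCGG on either strand, a box found in 35.7% of windows.
Aldh1a1, chr19:20601718-20602017, plus strand: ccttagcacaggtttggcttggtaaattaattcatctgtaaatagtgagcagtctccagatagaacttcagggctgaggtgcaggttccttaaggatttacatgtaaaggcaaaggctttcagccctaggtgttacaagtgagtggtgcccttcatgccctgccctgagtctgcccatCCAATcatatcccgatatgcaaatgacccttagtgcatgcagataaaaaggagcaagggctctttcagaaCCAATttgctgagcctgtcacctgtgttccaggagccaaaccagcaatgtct
Crabp1, chr9:54764498-54764797, plus strand: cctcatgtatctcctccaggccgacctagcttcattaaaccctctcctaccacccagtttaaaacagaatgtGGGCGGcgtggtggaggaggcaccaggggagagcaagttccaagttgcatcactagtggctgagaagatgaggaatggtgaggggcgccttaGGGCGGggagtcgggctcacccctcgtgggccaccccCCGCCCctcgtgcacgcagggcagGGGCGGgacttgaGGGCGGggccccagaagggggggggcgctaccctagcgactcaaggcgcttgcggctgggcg

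The synthesis genes Aldh1a1, Aldh1a3 and Rdh10 and the breakdown gene Cyp26a1 rose in cyclin D1 knockout retinas, and the binding protein gene Crabp1 fell. The synthesis gene Aldh1a2 was near the floor and was not tested. Of the 9 members, 6 were bright enough to be tested as genes. Aldh1a1, Aldh1a3, Rdh10 and Cyp26a1 were higher, Crabp1 was lower and Crabp2 did not pass (limma, adjusted p under 0.1). Over the 10916 genes tested, 2.03% were higher and 2.63% lower by the same rule. The pools of the genotypes did not overlap in any of the 6, with Crabp2 among the 5 that lay higher, and 10.5% of all genes lay wholly higher and 9.48% wholly lower. The members were chosen with earlier results of these data known, so their counts beside these shares are a description only. Signals below are normalised units in pools 1, 2 and 3, and differences are knockout minus wildtype on the log2(signal + 16) scale, where the added 16 shrinks differences between low signals. In bulk tissue, a change in the number of cells of a type and a change in RNA per cell cannot be told apart.

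**Figure D1:**
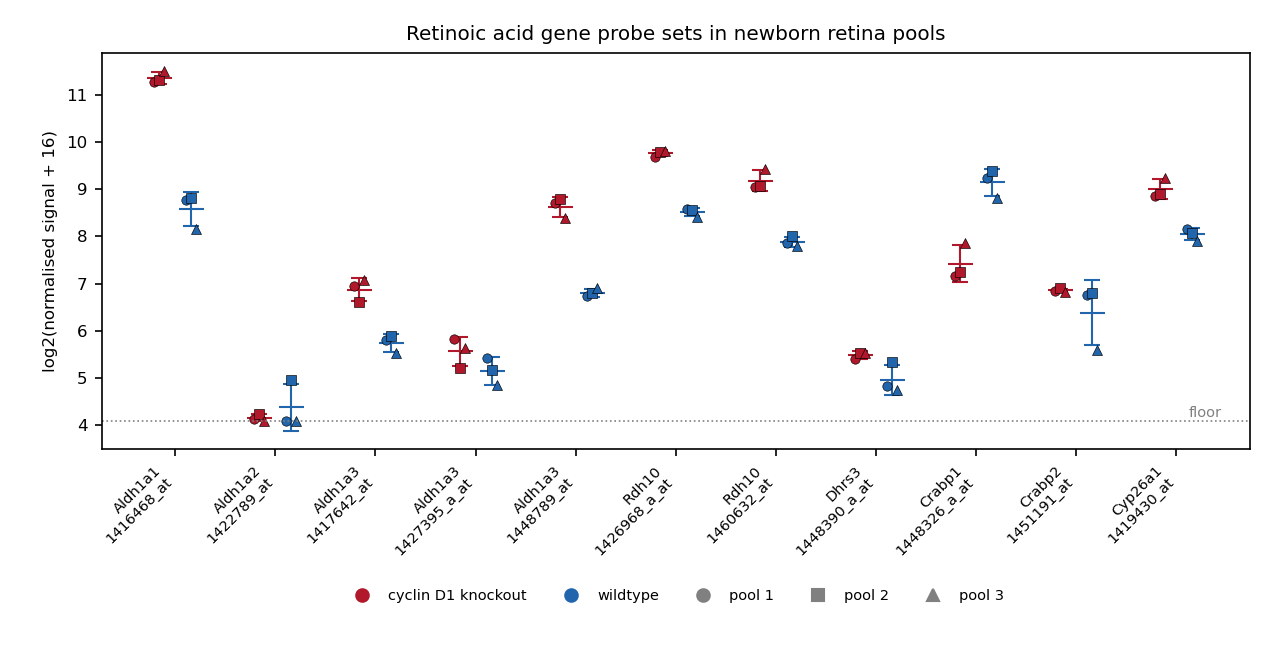
Each point is 1 pool on 1 probe set, as log2(normalised signal + 16), with the mean and SD of 3 pools and the dotted line at the floor. The 3 knockout pools lie above the 3 wildtype pools for Aldh1a1, both Rdh10 probe sets, 2 of 3 Aldh1a3 probe sets and Cyp26a1, and below them for Crabp1. They also lie above them for Dhrs3 and Crabp2, which did not pass in the fit over all probe sets.

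Aldh1a1, the dorsal synthesis enzyme, read 2444, 2527 and 2905 units in knockout pools, against 420.0, 435 and 271 units in wildtype pools. The genotypes did not overlap, and the lowest knockout pool stood far above the highest wildtype pool. The log2 difference was 2.78 (SE 0.17, limma adjusted p = 0.000837), a 6.87-fold rise and the 2nd largest of the 10916 genes tested. It was 3.12 and 2.72 within the sets of arrays. Aldh1a7, a close relative of Aldh1a1 whose probe set was too dim for the gene test, was also higher in the fit over all probe sets, at 6.92 ± 0.14 in knockout and 5.31 ± 0.37 in wildtype pools on the log2 scale (SD, n = 3 each). Its difference was 1.62 (SE 0.22, limma adjusted p = 0.0203). Signal shared between these similar transcripts cannot be told apart here.

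Aldh1a3, the ventral synthesis enzyme, was read by 3 probe sets that agreed in direction and differed in size. The brightest read 399.6, 425 and 319 units in knockout pools, against 89.9, 95.4 and 103 units in wildtype pools. Every knockout pool exceeded every wildtype pool on it. Its log2 difference was 1.82 (SE 0.14, limma adjusted p = 0.00108), a 3.52-fold rise, with 1.84 and 1.63 within the sets. A dimmer probe set read 107, 81.1 and 119 units in knockout pools, against 39.7, 43.2 and 30.0 units in wildtype pools, a log2 difference of 1.14 (SE 0.19, limma adjusted p = 0.0448 over all probe sets). The dimmest, at percentile 29.5 of probe set levels, read 41.0, 21.2 and 33.7 units in knockout pools and 26.8, 19.9 and 12.7 in wildtype pools. The groups overlapped there, and its difference of 0.42 (SE 0.22) did not pass (limma adjusted p = 0.682). With the 3 probe sets averaged, the gene's difference was 1.12 (adjusted p = 0.0061).

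Aldh1a2, the third synthesis enzyme, was at or near the floor. Its signal was 1.54, 2.81 and 1.00 units in knockout pools, against 1.00, 15.0 and 1.00 units in wildtype pools. Wildtype pool 2 alone stood above the rest. This probe set lay at percentile 3.70 of probe set levels, and the gene was not tested.

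Rdh10, which supplies retinal to the ALDH1A enzymes, rose on both of its probe sets. The brighter read 809, 865 and 881 units in knockout pools, against 365, 360.2 and 325 units in wildtype pools. Values varied little within a genotype and did not overlap. The log2 difference was 1.25 (SE 0.09, limma adjusted p = 0.00108), a 2.37-fold rise, with 1.32 and 1.24 within the sets. The other probe set read 512, 522 and 677 units in knockout pools and 216, 241 and 205 in wildtype pools, a difference of 1.30 (SE 0.13, limma adjusted p = 0.00793 over all probe sets).

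Dhrs3, which works against RDH10 by reducing retinal, was dim. It read 26.0, 30.2 and 30.3 units in knockout pools, against 12.2, 24.1 and 10.8 units in wildtype pools. The knockout pools lay just above the wildtype pools, wildtype pool 2 being the closest. At percentile 19.3 of gene levels it was not tested as a gene, and in the fit over all probe sets its difference of 0.52 (SE 0.19) did not pass (limma adjusted p = 0.426).

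Cyp26a1, which hydroxylates retinoic acid for disposal, read 448, 465 and 588 units in knockout pools, against 271, 254 and 224 units in wildtype pools. No knockout pool came down to the wildtype range. The log2 difference was 0.95 (SE 0.13, limma adjusted p = 0.00931), a 1.94-fold rise, with 0.98 and 1.12 within the sets. When the alike pools 1 and 2 were averaged within genotypes, so that 2 values a genotype remained, the call ended (adjusted p = 0.162). Rarb, which holds the same kind of repeat before its start, differed by -0.07 (SE 0.13, limma adjusted p = 0.934), with 6.60 ± 0.07 in knockout and 6.67 ± 0.08 in wildtype pools on the log2 scale (SD, n = 3 each). Of 5 tested genes whose window held the repeat, Cyp26a1 was the 1 that passed, with genes on 1 chromosome left out of this count.

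Crabp1 fell while Crabp2 did not pass the test. Crabp1, whose product binds retinoic acid in the cytoplasm, read 128, 135 and 217 units in knockout pools, against 585, 653 and 436 units in wildtype pools. The genotypes lay apart, with pool 3 nearest to the other genotype in each. The log2 difference was -1.72 (SE 0.22, limma adjusted p = 0.00657), a 3.30-fold fall and the 4th largest of the genes tested, with -1.62 and -1.44 within the sets. Its call ended with pools 1 and 2 averaged (adjusted p = 0.168). Crabp2, whose product carries retinoic acid to its receptors, read 99.2, 103 and 97.4 units in knockout pools, against 91.4, 96.2 and 32.3 units in wildtype pools. Wildtype pool 3 was far below the other 5 arrays, and the difference of 0.47 (SE 0.31, limma adjusted p = 0.634) became 0.08 without it.

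Over all 11 probe sets without a filter on dim values, 6 were higher and 1 lower, where 0.61% and 0.899% of the 34945 probe sets were. Without overlap between genotypes, 8 of the 11 lay higher and 1 lower, against 7.41% and 7.23% of all probe sets. The 6 were those of Aldh1a1 and Cyp26a1, both of Rdh10 and 2 of Aldh1a3. As the members were chosen with earlier results of these data known, these counts beside the shares are a description and no test. The probe sets of Aldh1a2, Dhrs3 and Crabp2 and the dimmest of Aldh1a3 did not pass. In this fit, which adjusts over more features, Crabp1, Cyp26a1 and the middle probe set of Aldh1a3 lost their calls when pool 1 or pool 2 of either genotype was left out, with 4 higher and 0 lower remaining. The Aldh1a3 probe set also lost its call without knockout pool 3 (5 higher).

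The within-pool difference of pairs of genes was used to describe how equally members changed. Probe sets differ in brightness, so only the shift of such a difference between genotypes is read. Each of 5 pairs shifted without overlap between genotypes. Each had an exact two-sided permutation p of 0.1, the smallest that 3 against 3 pools allow (0.1 after adjustment over the 5). No pair could therefore pass under 0.1, and the shifts are given as a description of these pools. The dorsal enzyme rose more than the ventral in these pools. Aldh1a1 minus Aldh1a3 was 2.57, 2.53 and 3.12 in knockout pools and 2.04, 2.02 and 1.27 in wildtype pools, a shift of 0.96. Pool 3 was the extreme of each genotype there, and the shift was 1.28 and 1.09 within the sets. Knockout pool 3 held the most summed lens gene signal of the pools (73300.5 units) and wildtype pool 3 the least (3862 units). Without knockout pool 3 the shift was 0.77, and without wildtype pool 3 it was 0.71. The part of lens tissue in this shift was not tested.

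The dorsal enzyme rose more than the breakdown enzyme in these pools. Aldh1a1 minus Cyp26a1 was 2.41, 2.40 and 2.27 in knockout pools, against 0.60, 0.74 and 0.26 in wildtype pools, a shift of 1.83. For the ventral enzyme the pairing with Cyp26a1 gave -0.16, -0.12 and -0.85 in knockout pools, against -1.44, -1.28 and -1.01 in wildtype pools. That shift of 0.86 depended on the probe set of Aldh1a3, and with its 3 probe sets averaged it was 0.17 (exact permutation p = 0.4). Rdh10 minus Dhrs3 was 4.30, 4.25 and 4.28 in knockout pools, against 3.76, 3.23 and 3.67 in wildtype pools. This shift of 0.72 rests on a dim gene and was 0.36 with a pseudocount of 1. Crabp1 minus Crabp2 was 0.32, 0.34 and 1.04 in knockout pools, against 2.48, 2.58 and 3.23 in wildtype pools, a shift of -2.19.

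**Figure D2:**
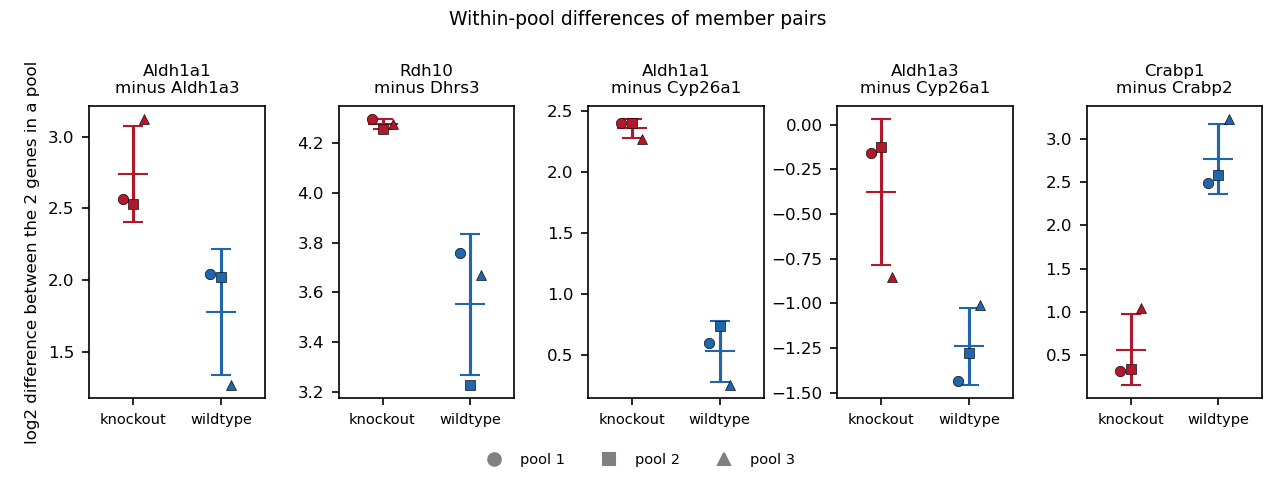
Each panel plots the log2 difference between 2 member genes in each pool, with the mean and SD of 3 pools, on an axis of its own that does not start at 0. Knockout pools lie above wildtype pools in the 4 pairs that start with Aldh1a1, Aldh1a3 or Rdh10 and below them for Crabp1 minus Crabp2.

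Other genes of the pathway mostly did not pass the test. None of 5 tested receptor genes (Rara, Rarb, Rxra, Rxrb and Rxrg) passed, with differences from -0.07 to 0.41 and a median of -0.07, where the median of all genes tested was 0.02. Of 14 tested genes of retinol uptake, storage and related enzymes, Cyp1b1 rose and none fell (median 0.01). Cyp1b1, a cytochrome that can oxidise retinol, averaged 8.53 ± 0.05 in knockout and 7.68 ± 0.06 in wildtype pools (log2 scale, SD, n = 3 each; difference 0.86, SE 0.10, limma adjusted p = 0.00485). Its other 2 probe sets differed by 0.39 and 0.12 and did not pass. Cyp26b1, the remaining Cyp26 gene, was at or near the floor on all arrays and was not tested.

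Of 3 tested visual cycle genes, Rrh rose and none fell (median 1.05). Rrh, which encodes the opsin peropsin of the pigment epithelium, averaged 8.94 ± 0.08 in knockout and 7.61 ± 0.15 in wildtype pools (log2 scale, SD, n = 3 each; difference 1.34, SE 0.11, limma adjusted p = 0.00138). Of 9 tested target and coregulator genes, Meis2 fell and none rose (median -0.25). Meis2, a homeodomain factor also found in amacrine cells, averaged 8.57 ± 0.12 in knockout and 9.42 ± 0.10 in wildtype pools (difference -0.85, SE 0.10, limma adjusted p = 0.00571). Of its 4 probe sets, 2 passed in the fit over all probe sets, and the others differed by -0.87 and -0.15 and did not (limma adjusted p = 0.114 and 0.958). Tgm2, another gene of that list, differed by -0.41 on its brightest probe set and did not pass (limma adjusted p = 0.235). In the fit over all probe sets 2 dimmer ones of Tgm2 passed as lower, at -0.97 and -0.93 (limma adjusted p = 0.0479 and 0.0845). The rest differed by -0.94, -0.10 and 0.27 and did not pass. The calls of Cyp1b1, Meis2 and Id3 ended with pools 1 and 2 averaged (adjusted p = 0.172, 0.171 and 0.174), and that of Rrh did not.

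Other genes that mark the dorsal and ventral retina mostly did not pass. Of 10 tested dorsal genes, Id3, an inhibitor of bHLH factors, rose (difference 1.30, SE 0.21, limma adjusted p = 0.0169) and the list's median was -0.01. The dorsal factors Tbx2, Tbx3 and Tbx5 differed by -0.12, -0.10 and -0.09 in the gene fit, and none passed there. A dimmer Tbx3 probe set was lower without overlap and passed in the fit over all probe sets (difference -0.81, SE 0.14, limma adjusted p = 0.055). The remaining Tbx3 probe sets differed by -0.14, 0.09 and -0.10 and did not pass. Of 7 tested ventral genes none passed, with differences from -0.20 to 0.32 and a median of 0.03. Vax2, the ventral homeodomain factor, differed by -0.07 (SE 0.12).

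**Figure D3:**
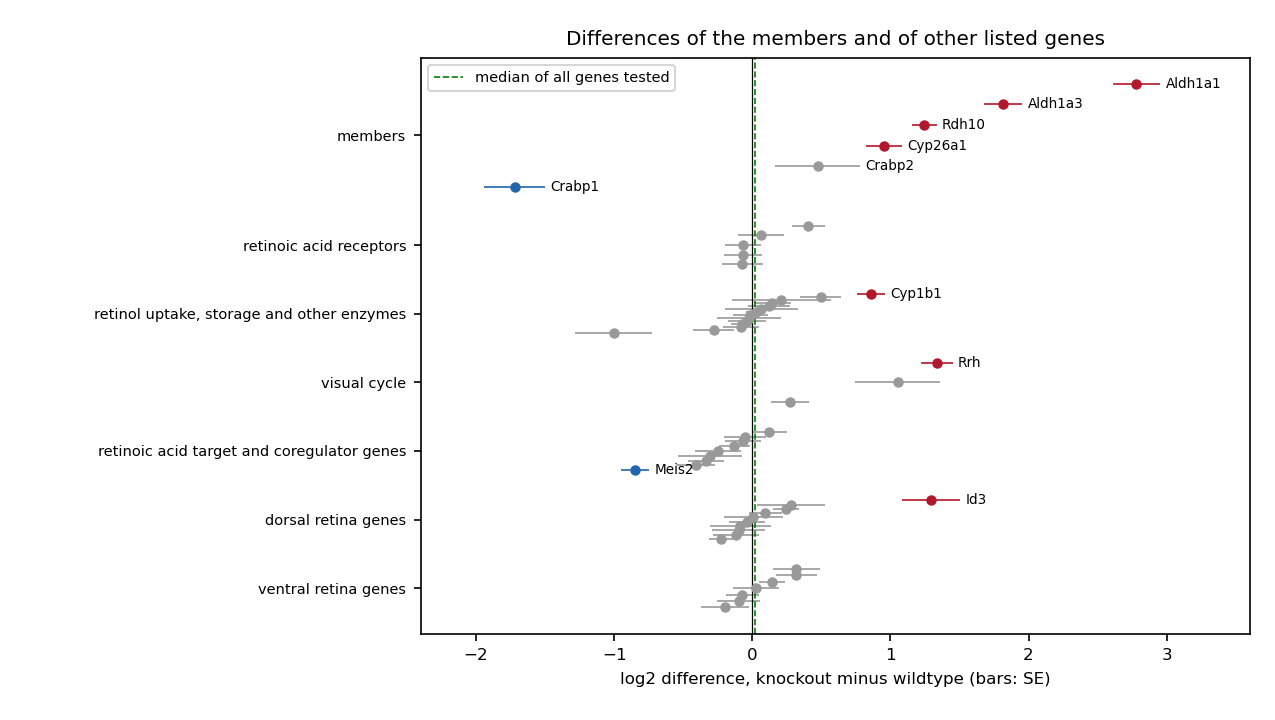
Log2 differences, knockout minus wildtype, with SE bars, of the 6 tested members and of tested genes in the 6 pathway and patterning lists. Coloured points passed an adjusted p of 0.1 (red higher, blue lower), grey points did not, and most listed genes lie near the median of all genes tested at 0.02.

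Lens signal moved with the members that rose. Of 18 tested lens genes 13 were higher and none lower, with a median difference of 2.37. Their summed signal was 29332, 28557 and 73300.5 units in knockout pools 1, 2 and 3, against 10043, 10363 and 3862 in wildtype pools. Within each genotype Aldh1a1 and Rdh10 were lowest in the wildtype pool with the least lens signal and highest in the knockout pool with the most, as was Cyp26a1. The Aldh1a3 probe sets differed in this: the brightest ran the other way in pool 3 of each genotype, while the middle probe set was highest in knockout pool 3 and lowest in wildtype pool 3. Without knockout pool 3 the differences of Aldh1a1, Aldh1a3, Rdh10 and Cyp26a1 were 2.71, 1.93, 1.22 and 0.83, and without wildtype pool 3 they were 2.57, 1.86, 1.19 and 0.88. The part of lens tissue in these differences was not tested.

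**Figure D4:**
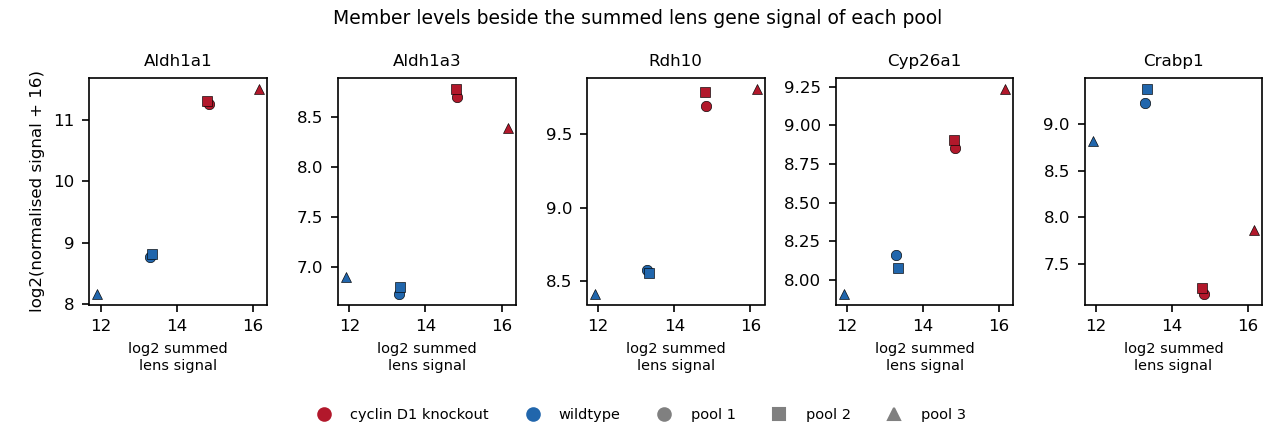
Level of 5 members in each pool, as log2(normalised signal + 16), against the log2 of the summed lens gene signal of that pool. Knockout pools hold more lens signal than wildtype pools, and the 2 genotypes lie apart on both axes, so the plot is a description of 6 pools.

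Markers of other tissues moved less evenly. Of 12 tested ciliary margin genes 3 were higher (Ccnd2, Wfdc1 and Col9a1) and none lower, with a median difference of 0.31. The list summed to 5235 to 5432 units in knockout and 2309 to 2525 in wildtype pools, much of it Col9a1, and without that gene to 2406 to 2465 units in knockout and 1625 to 1867 in wildtype pools. Of 6 tested genes in the pigment epithelium list Pmel was lower and none higher, and Rpe65 was too dim to be tested. That list summed to 1063 to 1157 units in knockout and 1254 to 1697 in wildtype pools. Rrh, which was higher, was counted with the visual cycle genes and not in this list. Mesenchyme and vessel genes summed to 3387, 3621 and 1905 units in knockout pools and 1858, 1936 and 1800.0 in wildtype pools, with 1 of 7 tested genes, Col1a1, higher. Surface ectoderm genes summed to 953, 879 and 447 units in knockout pools, against 409, 430.0 and 408 in wildtype pools, and none of 4 tested passed. Knockout pools 1 and 2 were the high ones in the mesenchyme and surface ectoderm sums, and Aldh1a3 on its brightest probe set was also higher in them than in knockout pool 3, but on its middle probe set it was highest in knockout pool 3. Without knockout pool 1 or 2 the difference of Aldh1a3 was 1.78 and 1.74. The part of these tissues in the results was not tested.

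Some amacrine cell markers were lower beside Crabp1. Of 12 tested, 5 were lower (Ptf1a, Tfap2b, Gad1, Slc32a1 and Meis2), Calb2 was higher and 6 did not pass, with sums of 3998 to 4474 units in knockout and 4848 to 6085 in wildtype pools. Within wildtype, pool 3 had the highest amacrine sum and the lowest Crabp1. Tfap2a, which did not pass, stood at 10.3 in that pool on the log2 scale, against 8.82 and 9.13 in the other wildtype pools. Of the 5 lower markers, Tfap2b was also highest in wildtype pool 3, but Ptf1a, Gad1, Slc32a1 and Meis2 were lowest there, as Crabp1 was. Among 15 tested genes of progenitors and Muller glia, 5 were higher (Fgf15, Glul, Dkk3, Apoe and Vim) and 4 lower (Ccnd1, Sox2, Hes5 and Lhx2). The list summed to 12038 to 12533 units in knockout and 15812 to 16273 in wildtype pools. Without the deleted gene Ccnd1 that order turned, with 11591 to 12101 units in knockout and 10043 to 11055 in wildtype pools. That sum joins genes that moved in opposite directions, and Sox2, Hes5 and Lhx2 differed by -0.56, -0.88 and -0.66. The part of these cells in the fall of Crabp1 was not tested.

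The genes most like each member over the 6 arrays were named by Pearson correlation among 442 tested genes whose SD over the arrays was at least 0.5. The genotypes lie apart in these genes, so the coefficients mostly follow genotype and are given with no test. Closest to Aldh1a1 were Atp1b3, Gas6, Pbxip1, Gsta4 and Cdk6 (r = 0.994 to 0.998), and Gas6, Cdk6 and Atp1b3 were also among the 5 closest to Rdh10, with Col9a1 and Sparc (r = 0.991 to 0.994). Closest to Aldh1a3 were Itm2a, the collagen gene Col9a1, Mest, Igf2 and Minar2 (r = 0.983 to 0.993). Closest to Cyp26a1 were the lipid carrier gene Apoe, the lens genes Cryba1 and Cryba2, Vit and Gsta4 (r = 0.982 to 0.988). Closest to Crabp1 were Birc5, Incenp, Cenpa, Sgo2a and Cenpf, genes of chromosome segregation (r = 0.996 to 0.999), with log2 differences from -1.38 to -1.12.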

How the data were processed

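The labels' protocols describe pooled newborn retinas, column-purified total RNA, biotin labelling after one amplification round and Affymetrix arrays. The deposited table holds 1 linear intensity per probe set and array; how probes were summarised and scaled was not given in the sources used here. Without detection calls, dim values carry no limit set by background. Median log2 intensity of the deposited values ran from 5.34 to 5.66, so the linear values were quantile normalised, floored at 1 and taken to log2(value + 16). Of 45101 rows, 64 controls were left out. For 34741 of the 34945 probe sets with 1 symbol the gene identifier was found in RefSeq, and the RefSeq symbol was used, whether or not it differed. A gene was represented by its brightest probe set, the lowest 40% of 18193 genes were left out, and limma 3.58.1 in R 4.3.3 (intensity trend, no covariate, two-sided, Benjamini-Hochberg) was fitted to 10916 genes and again to all 34945 probe sets. The threshold of 0.1 is the false discovery rate in the labels. Pathway genes were named where they passed, up to 6 a list. Rarb, Aldh1a7, Cyp26b1, Tgm2, Ttr, Rlbp1, the Tbx genes, Vax2 and the receptors were named outside that rule, after their values were seen. The members and lists were chosen with earlier results of these data known. The sums without Ccnd1 and without Col9a1 were also added after values were seen. Scripts were tested on simulated data, and figures were drawn with matplotlib 3.10.9.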

Additional observations from a re-analysis of the deposited data

How the results depend on the processing

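Over 21 alternatives (scaling, pseudocount, filter, probe set choice, variance model, threshold, blocks, averaged pools and leaving out each array) Aldh1a1, Aldh1a3 and Rdh10 kept their direction and call, and Crabp1 and Cyp26a1 lost theirs in 1. That was with pools 1 and 2 averaged, where 3 members were higher and 0 lower, 1 and 0 member probe sets, and 1 and 0 pathway genes. No other alternative moved the count of 4 members higher and 1 lower. Pathway genes, 3 higher and 1 lower, became 5 higher with values as deposited, 5 and 2 with averaged probe sets, 3 lower with the most different probe set, 9 and 8 with array weights, and 6 and 2 with the array set as a block. Leaving out 1 array gave 3 to 8 higher and 1 to 5 lower, 8 and 5 without wildtype pool 3 and 2 lower without knockout pool 3. Member probe sets higher were 4 to 6 and lower 0 to 1 when 1 array was left out. With values as deposited, the median difference of all genes was 0.13. The shift of Aldh1a1 minus Aldh1a3 was 1.66 and that of Aldh1a3 minus Cyp26a1 0.17 with averaged probe sets, that of Rdh10 minus Dhrs3 0.36 with a pseudocount of 1 and that of Crabp1 minus Crabp2 -1.77 with a pseudocount of 64. Leaving out 1 array, the 5 shifts ran from 0.71 to 1.10, 0.56 to 0.83, 1.69 to 1.93, 0.74 to 1.10 and -2.43 to -1.96, in the order given above. The difference of Aldh1a2 ran from -0.37 to 0.064 when 1 array was left out, the 0.064 without wildtype pool 2. Other causes of these changes were not tested. Same-numbered pools share only a number (correlations of deviations 0.17, -0.35 and -0.48), and the replicate block left 4 members higher and 1 lower but gave 4 member probe sets higher and 0 lower. Over all genes tested, 222 higher and 287 lower became 17 and 26 with averaged pools and 1857 and 1747 with array weights, the extremes of the 21. The number of arrays, 6, limits the precision, and signals near the floor cannot be ordered.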

Other observations

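The direct repeat found in the windows of Cyp26a1 and Rarb also lay in windows of 3 other tested genes, with the same chromosome left out. Syndig1, which encodes a synaptic membrane protein, differed by 0.29 (SE 0.20), Prss27, a serine protease gene, by 0.01 (SE 0.18), and Tnfsf13b, a cytokine gene of B cell survival, by -0.10 (SE 0.16), and none of the 3 passed the test (limma adjusted p = 0.668, 0.993 and 0.927). Knockout pools overlapped wildtype pools in each.

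Ttr, the carrier of thyroid hormone and of retinol-binding protein made by the pigment epithelium, averaged 7.46 ± 0.42 in knockout and 8.47 ± 0.48 in wildtype pools on the log2 scale (SD, n = 3 each). This 2.01-fold lower level on its brightest probe set did not pass (log2 SE 0.28, limma adjusted p = 0.126), and knockout pool 3 overlapped the wildtype pools there. The other Ttr probe sets differed by -0.27, -1.05 and -0.66 and did not pass in the fit over all probe sets. Genotypes did not overlap on the last of these. Rlbp1, which encodes a retinal-binding protein of Muller glia, averaged 9.02 ± 0.42 in knockout and 7.97 ± 0.59 in wildtype pools, and its difference of 1.05 (SE 0.31) did not pass either (limma adjusted p = 0.148).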
